A study of Mus musculus with 3 samples.

Results

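Gamma-delta T cells were followed among CD45-selected leukocytes of infarcted mouse hearts, read one by one on the BD Rhapsody platform. A cell was taken as a gamma-delta T cell when it had at least 2 molecules of Cd3e, Cd3d and Cd3g together, a molecule of Trdc (the constant gene of the delta chain), no molecule of Cd4, Cd8a, Cd8b1 or Cd79a, and less than 0.2% of its molecules from the complement genes C1qa, C1qb and C1qc. Of 25640 cells with 200 or more genes, 79 met this rule. The cells they were set against are 493 alpha-beta T cells of the same hearts, which had at least 2 molecules of Cd3, a molecule of Trac (the constant gene of the alpha chain), none of Trdc, and the same limits on C1q and Cd79a. Both classes were thus selected on measured values, the molecule counts of these 12 genes in each cell, whose levels are given only as a description.

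The hearts came from F7fl/fl CX3CR1Cre mice and from F7fl/fl WT mice, so every animal carried the floxed allele of coagulation factor 7. In the Cre mice recombination is driven from the gene of the fractalkine receptor CX3CR1, which is active in monocytes and macrophages and in some lymphocytes. All hearts had a myocardial infarction by permanent ligation and were taken at different times after it. Cells were pooled in 3 multiplexed libraries and carry 18 sample tags, each marking 1 biological replicate. The labels give no genotype, time, age or sex for a single tag, so genotypes and times were not compared, and every test below sets gamma-delta cells against alpha-beta cells of the same tag.

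Gamma-delta T cells carry a receptor built from a gamma and a delta chain, each joined from a V segment and a constant gene during development in the thymus. In mice the V segments mark lineages: cells with Vγ6, usually paired with a delta chain from Trdv4, and many cells with Vγ4 are known as innate-like producers of interleukin-17 in barrier and other tissues, whereas CD27-bearing cells are known for interferon-gamma. In the heart, gamma-delta cells are known as an early source of interleukin-17 after infarction.

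The 6 germline V segments below are shown because cells with their molecules are counted further on, and not all of them tell these lineages apart. Each line gives the last 60 bases of the V segment on its own strand (GENCODE M21, GRCm38), in lower case up to the conserved cysteine near the 3′ end. The capitals mark the germline bases from that cysteine codon on, which begin the third complementarity-determining region that contacts antigen.
Trdv4: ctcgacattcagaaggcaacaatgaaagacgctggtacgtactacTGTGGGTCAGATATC
Tcrg-V6: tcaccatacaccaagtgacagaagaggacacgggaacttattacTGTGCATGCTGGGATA
Tcrg-V4: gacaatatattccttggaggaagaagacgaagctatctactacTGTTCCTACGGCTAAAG
Trdv5: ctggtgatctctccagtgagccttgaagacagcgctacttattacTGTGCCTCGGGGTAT
Trgv2: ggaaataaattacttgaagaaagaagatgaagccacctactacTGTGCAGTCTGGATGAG
Tcrg-V1: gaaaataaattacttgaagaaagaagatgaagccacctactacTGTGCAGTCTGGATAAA
The Trdv4 stretch lies at chr14:54075456-54075515 on the plus strand, and that of Trdv5 at chr14:54148662-54148721 on the minus strand, inside the span annotated for Trdc on the plus strand. The gamma segments lie on chromosome 13, Tcrg-V6 at chr13:19190870-19190929, Tcrg-V4 at chr13:19185447-19185506 and Tcrg-V1 at chr13:19340395-19340454 on the plus strand, and Trgv2 at chr13:19336573-19336632 on the minus strand. Trgv2 and Tcrg-V1 share 145 of the 150 bases compared (96.7%), so molecules counted for one of them may come from the other.

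The 3 libraries held 15274, 4894 and 5472 cells and 532582616 molecules in all, between 10152522 and 62344127 per tag. Gamma-delta cells had a median of 8074 molecules and 2627 genes, and alpha-beta cells 8891 molecules and 2782 genes. Library 1 was made on other beads and with another pipeline release than libraries 2 and 3 and kept intronic reads. Its run name holds d3, which those of libraries 2 and 3 do not, and the meaning is not stated. The mix of genotypes and times in each library is not given, so library and condition cannot be told apart. Mitochondrial genes took a median of 7.28% of the molecules of a gamma-delta cell and 6.76% of an alpha-beta cell, and macrophage markers 0.157% and 0.195%. Libraries 1 and 2 had 4 cell barcodes in common, libraries 1 and 3 had 3 and libraries 2 and 3 had 0, and none of these was a gamma-delta cell.

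Among the 79 members, Trdc had a median of 13 molecules and up to 117, and Cd3e was found in 73 cells, as the rule that chose them makes likely. Il7r, the receptor for the T cell survival factor interleukin-7 and no part of the rule, was found in 71. A gamma constant gene (Tcrg-C1, Tcrg-C2, Tcrg-C3 or Tcrg-C4), which the rule did not use either, was found in 71 of 79 gamma-delta cells (89.9%), against 58 of 493 alpha-beta cells (11.8%) and 12 of 222 natural killer cells (5.41%), taken as cells with Ncr1 and no Cd3. Trac was found in 39 members (49.4%), at 158 CPM over all members, where CPM is a gene's molecules scaled to a common total. The gene of the delta constant region is not confined to gamma-delta cells: of 471 cells with Trdc, 276 had no Cd3 molecule, and 101 of 222 natural killer cells (45.5%) had Trdc, though at 85.2 CPM against 1815 CPM in gamma-delta cells.

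The members nearest the limits of the rule were less clear. The 9 members with a single Trdc molecule had a median of 8210 molecules, and 3 of them had a gamma constant gene. The 8 members with 2 or 3 Cd3 molecules included 4 with a gamma constant gene. Just outside, 8 cells were lost for Cd4 alone, 12 for Cd8 alone, 16 for C1q alone, 8 for Cd79a alone, and 9 had 1 Cd3 molecule and met every other condition. Of the 8 members without a gamma constant gene, 5 had Klrb1c (NK1.1) and 3 had Ncr1, markers of natural killer cells. Without these 8, the median share of T cells per tag was 12.1% in place of 13.3%. The comparison with alpha-beta cells then had 5 tags in place of 7, and 20 of the 42 genes called below were still called. Their part in the other results was not tested, except for the shares by type given at the end.

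Gamma-delta cells made up 13.8% of the 572 T cells (exact Clopper-Pearson 95% interval 11.1 to 16.9%) and 0.308% of all cells. They were found under every tag, between 1 and 13 cells each, and the share of T cells per tag ran from 5% to 24.5% with a median of 13.3% (SD 5.80, n = 18). Library 3 held the 2 highest tags, tag 12 with 13 gamma-delta cells (24.5%, interval 13.8 to 38.3%) and tag 11 with 9 (23.7%), and tag 9 of library 1 held the lowest with 1 cell. Pooled over its tags, library 3 had 17.6% (interval 12.6 to 23.5%), library 2 had 13.4% (8.16 to 20.4%) and library 1 had 10.7% (7.07 to 15.4%). Intervals here and below pool cells over tags where tags are not named. They cover counting error only, and not the spread between tags or libraries.

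**Figure D1:**
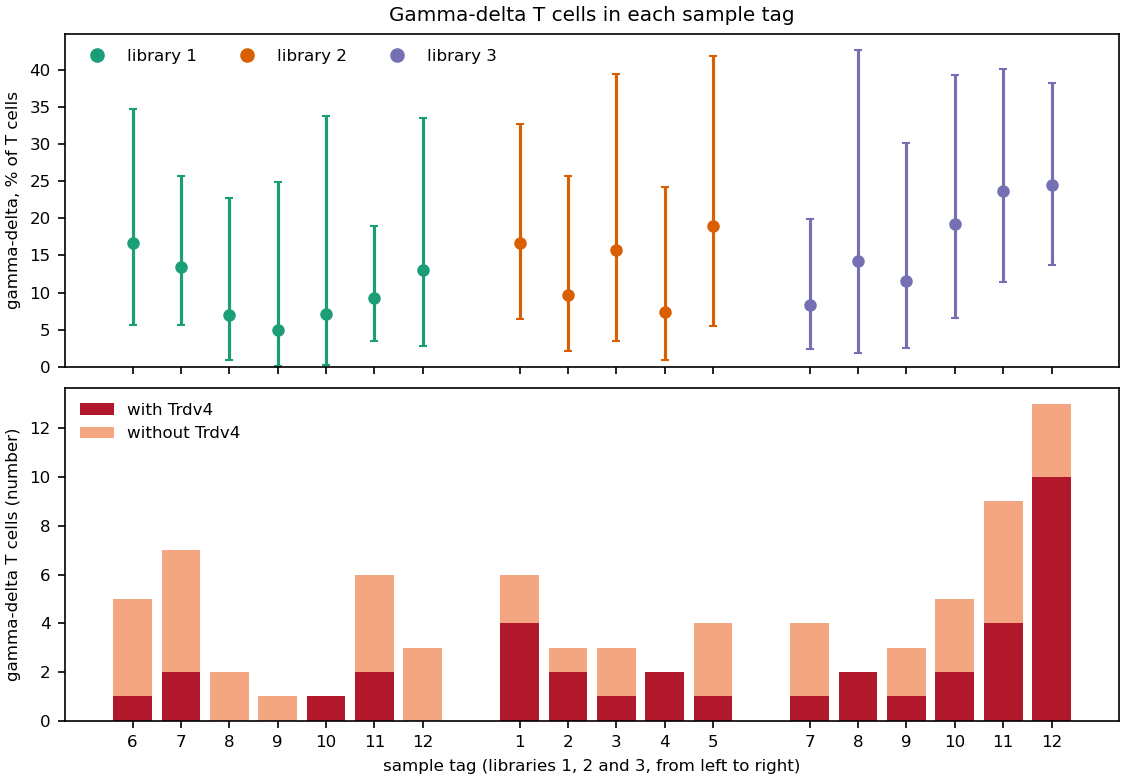
Top, the share of T cells that were gamma-delta in each of the 18 tags, in percent, with the exact 95% interval and a colour for each library. Bottom, the number of gamma-delta cells per tag, split into cells with and without a Trdv4 molecule. Tag 12 of library 3 stands highest at 24.5% with 13 cells, and the intervals of most tags overlap.

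The delta chain most often read was the one from Trdv4, found in 36 of 79 gamma-delta cells (45.6%, interval 34.3 to 57.2%), against 2 of 493 alpha-beta cells and 28 of 222 natural killer cells (12.6%). Trdv5 followed in 10 gamma-delta cells and 0 alpha-beta cells, Trdv2-2 in 5 and Trdv1 in 1. Since this end of Trdv5 lies antisense within Trdc and the use of strand in counting is not given, its molecules are uncertain. No cell had both Trdv4 and Trdv5.

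Among the gamma V segments, Trgv2 was found in 32 gamma-delta and 24 alpha-beta cells, and Tcrg-V1 in 15 and 5. Tcrg-V6, which encodes Vγ6, was found in 16 gamma-delta cells (interval 12 to 30.8% of them) and in 0 of 493 alpha-beta cells, which allows a share of up to 0.609%. All 16 cells with Tcrg-V6 also had Trdv4, the pairing known from interleukin-17 producing cells of other tissues. Tcrg-V4 was found in 8 members and Tcrg-V5 in 2, while Tcrg-V3 and Tcrg-V7 were not detected in any. Tcrg-V2 was not analysed here. In all, 65 of the 79 members had a molecule of some gamma or delta V segment.

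Of the constant genes, Tcrg-C1 was found in 65 gamma-delta cells and 31 alpha-beta cells, Tcrg-C2 in 49 and 32, and Tcrg-C4 in 44 and 24. After each cell was thinned to 1000 molecules, so that depth is equal, Tcrg-C1 was seen in 50.6% of gamma-delta cells and 0.811% of alpha-beta cells, Tcrg-C2 in 27.8% and 1.42%, and Tcrg-C4 in 19% and 0.811%. Tcrg-C1, Tcrg-C2 and Tcrg-C3 are near-identical copies, so their split is uncertain. The beta chain constant gene Trbc2 was found in 74 members, and after thinning in 48.1% of gamma-delta and 58.6% of alpha-beta cells.

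The 79 cells fell apart along the delta chain. Cells with Trdv4 more often carried several genes of interleukin-17 producing cells, and cells without it more often carried several genes of interferon and killer cells, as the map of single cells shows. The genes set out next were chosen after their values were seen, and the counts describe these cells without a test. The 36 cells with Trdv4 had a median of 6794.5 molecules and the 43 without it 8210, so the cells without Trdv4 were the more deeply read.

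Cd163l1 (SCART1, a scavenger receptor known from gamma-delta cells) was found in 34 of 36 cells with Trdv4 and 3 of 43 without. Its neighbour on chromosome 7, 5830411N06Rik (known as SCART2), went the other way, with 1 of 36 cells with Trdv4 and 11 of 43 without. Only 2 members had both scavenger receptors. Cd163l1 lies at chr7:140218267-140231145 and 5830411N06Rik at chr7:140247284-140300736, both protein-coding and on the plus strand.

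Several regulators of the interleukin-17 programme followed Trdv4. The transcription factor gene Sox13 was found in 22 of 36 cells with Trdv4 and 11 of 43 without, and the kinase gene Blk in 32 and 13. The receptors through which these cells are stimulated did the same: Il23r was found in 17 cells with Trdv4 and 5 without, and Il1r1 in 30 and 6. Il17a itself was found in 16 cells with Trdv4 and 8 without, at 258 and 121 CPM. Not all genes of the type 17 list followed. Il17f was found in 3 cells with Trdv4 and 1 without, at 15.4 and 52.8 CPM, and Ccr6 in 2 and 3. Areg, a growth factor of tissue repair, was found in 7 cells with Trdv4 and 2 without, all of them in library 3.

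Cells with Trdv4 also had more of the homing and residence gene Cxcr6, found in 34 of them at 958 CPM, against 20 cells without Trdv4 at 222 CPM. Il7r was found in 34 cells with Trdv4 and 37 without, at 1352 and 741 CPM. Cd44, the receptor for hyaluronan on activated T cells, was found in 35 of 36 cells with Trdv4 and 37 of 43 without.

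Several interferon and killer genes lay the other way, though not all of them. Eomes, a transcription factor of cytotoxic lymphocytes, was found in 2 cells with Trdv4 and 16 without, and Tbx21 (T-bet) in 3 and 14. Among surface receptors, Klrd1 (CD94) was found in 3 and 24, Ly6c2 in 4 and 25, and Cd27 in 1 and 14. Of secreted products, Ccl5 was found in 5 cells with Trdv4 and 28 without (276 and 2235 CPM), Xcl1 in 2 and 18, and Ifng in 2 and 11. The granzyme genes did not follow: Gzma was found in 4 cells with Trdv4 and 3 without, and Gzmb in 7 and 10 (108 and 110.0 CPM). Ncr1 was found in 3 cells of each kind. The 4 cells with Trdv4 and Gzma had 48, 38, 4 and 2 Gzma molecules. The first 3 of these also had Ncr1 and Klrb1c, and the first had no gamma constant gene. Klf2, a transcription factor gene of recirculating cells, was found in 9 cells with Trdv4 and 30 without.

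A smaller set had 5830411N06Rik. Of these 12 cells, 5 had Tcrg-V4 and 1 had Trdv4, and 5 of all 8 cells with Tcrg-V4 belonged to it. The 12 shared much with the cells with Trdv4: Maf, Rora and Il7r were found in all 12, Blk in 11, Il17a in 5, and Ifng and Cd27 in none. Cd163l1 and 5830411N06Rik together marked 47 members. The 32 members with neither had Ccl5 in 29, Nkg7 in 27, Ly6c2 and Klrd1 in 24 each and Eomes in 17, and 1 had Il17a. Of these 32, 16 had Klrb1c.

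**Figure D2:**
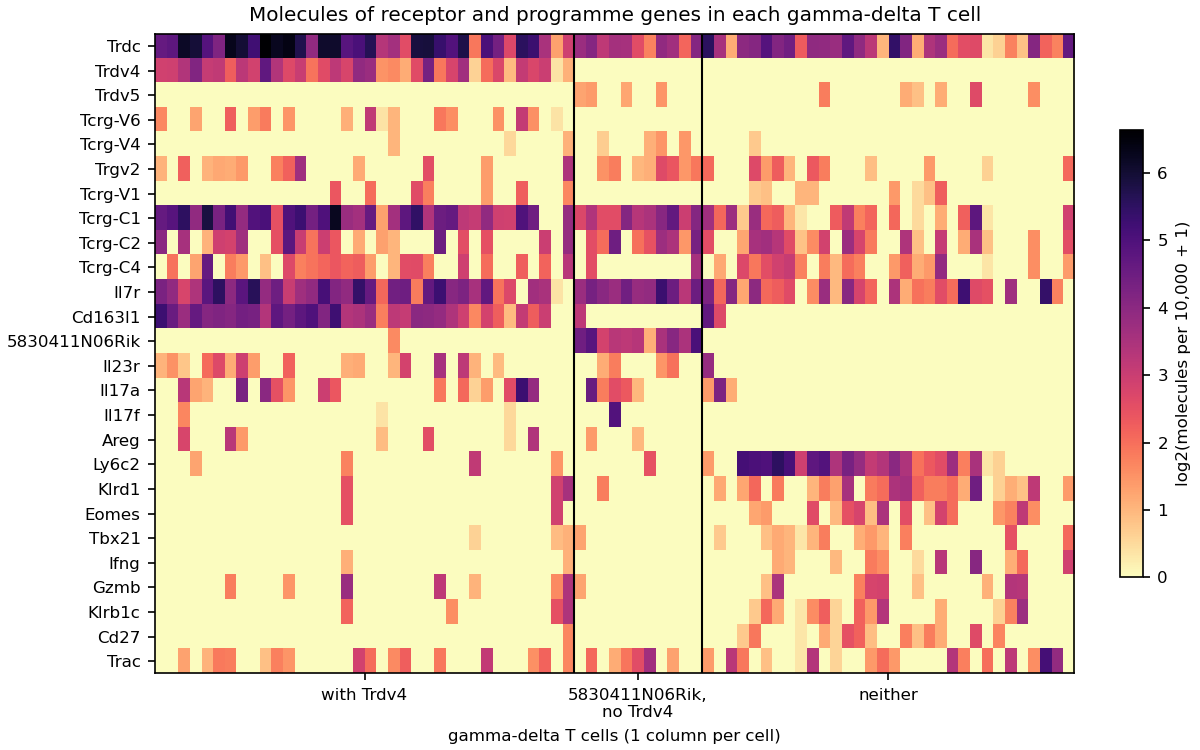
Heat map of the 79 gamma-delta cells (columns) and 26 genes (rows), coloured by log2 of molecules, scaled to a common cell total, plus 1; columns are grouped into 36 cells with Trdv4, 11 with 5830411N06Rik and no Trdv4, and 32 with neither. Cd163l1 fills 34 of the 36 columns of the first block, and Ly6c2 and Klrd1 lie mainly in the third.

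Counted by 5 and 6 genes, 48 of 79 gamma-delta cells (60.8%, interval 49.1 to 71.6%) had a molecule of a type 17 gene (Il17a, Il17f, Il23r, Cd163l1 or 5830411N06Rik) and 38 (48.1%, 36.7 to 59.6%) of a type 1 gene (Ifng, Tbx21, Eomes, Gzma, Gzmb or Klrd1). Of all 79 cells, 9 had both and 2 had neither. Among alpha-beta cells the shares lay the other way, with 36 of 493 (7.30%) for type 17 and 333 (67.5%) for type 1. At 1000 molecules a cell, type 17 genes were seen in 39.2% of gamma-delta and 3.65% of alpha-beta cells, and type 1 genes in 24.1% and 33.7%. Only gamma-delta cells were held to no Cd4 or Cd8 molecule. In the 84 alpha-beta cells that also had neither, thinned shares were 4.76% for type 17 and 23.8% for type 1 genes. That type 1 share was close to the one in gamma-delta cells. Before thinning the 84 cells had 5.95% and 61.9%. Natural killer cells, in which type 17 genes serve as background, had them in 4 of 222 cells (1.80%).

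The kinds of gamma-delta cell were spread unevenly over libraries. Trdv4 was found in 6 of 25 members of library 1 (24.0%), 10 of 18 of library 2 (55.6%) and 20 of 36 of library 3 (55.6%), and in 15 of the 18 tags. Il17a was found in 7, 2 and 15 members. Of its 139 molecules 120 came from library 3, 62 of them from 9 cells of tag 12 and 39 from 3 cells of tag 11. Without tag 12, 26 of 66 members (39.4%) had Trdv4 and 24 of these had Cd163l1. Il17a then had 77 molecules in 15 cells. Ly6c2 was found in 13 of 25 members of library 1 (52.0%), 5 of library 2 and 11 of library 3.

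To compare the cells over replicates, molecules were summed per tag for gamma-delta and for alpha-beta cells in the 7 tags with at least 5 of each, 51 gamma-delta and 249 alpha-beta cells in all. The gamma-delta sums held 37946 to 120900 molecules and the alpha-beta sums 220434 to 908986, so low genes are read with much less precision in gamma-delta cells. In such sums fewer cells with a gene and less RNA per cell cannot be told apart. With edgeR's quasi-likelihood test, the tag as a block and Benjamini-Hochberg adjustment, 42 of 3125 genes (1.34%) passed an adjusted p of 0.05. Of these, 29 (0.928%) were higher and 13 (0.416%) lower in gamma-delta cells, and in 34 the difference had the same sign in all 7 tags. How many of all 3125 genes had one sign in all 7 tags is not given here. The tags of gamma-delta cells did not overlap those of alpha-beta cells for 11 of the 42 called genes. Among all 3125 genes tested this held for 16. Over all 3125 genes the log2 differences had a median of -0.05. At an unadjusted p under 0.05 in edgeR's test stood 377 of the 3125 genes, the background for the counts by list below.

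The scavenger receptor Cd163l1 differed most. It stood at 98.4 CPM in the lowest tag, 472 in the median and 869.7 in the highest in gamma-delta cells, against 0, 0 and 17 CPM in alpha-beta cells. In gamma-delta cells 232 molecules were counted and in alpha-beta cells 6, and no tag overlapped. The log2 difference was 7.48 ± 0.54 (SE, 7 tags; edgeR adjusted p = 1.63e-06).

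Blk, a Src family kinase needed for interleukin-17 producing gamma-delta cells in mice, had 197, 324 and 922 CPM in gamma-delta cells, lowest, median and highest tag, against 0, 0 and 33.6 CPM in alpha-beta cells. Again the tags did not overlap (log2 6.72 ± 0.73, edgeR adjusted p = 0.00393). Tcrg-C1 ran from 213 over a median of 756 to 2233 CPM in gamma-delta cells and from 0 over 16.5 to 134 CPM in alpha-beta cells, without overlap (log2 5.77 ± 0.88, edgeR adjusted p = 0.0347). Serpinb1a, an inhibitor of neutrophil proteases that is high in interleukin-17 producing T cells, had 50.1, 395 and 1058 CPM in gamma-delta cells, against 6.23, 18.7 and 108 CPM in alpha-beta cells. It was higher in gamma-delta cells in all 7 tags although the ranges overlapped (log2 3.47 ± 0.63, edgeR adjusted p = 0.0426).

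Among genes for cytokine receptors in 3 of the lists, Il7r had 451, 959.6 and 2392 CPM in gamma-delta cells (lowest, median, highest tag) and 258, 308 and 486 CPM in alpha-beta cells. Its highest gamma-delta tags were tag 6 of library 1 and tag 1 of library 2, and it was higher in gamma-delta cells in all 7 tags (log2 1.69 ± 0.23, edgeR adjusted p = 0.00118). Il2rb, the beta chain of the receptor for interleukins 2 and 15, had 596, 899.7 and 1512 CPM in gamma-delta cells and 258, 360.2 and 571 CPM in alpha-beta cells, without overlap (log2 1.30 ± 0.16, edgeR adjusted p = 0.000253). Il18r1, the receptor for interleukin-18, had 108, 234 and 373 CPM in gamma-delta cells and 40.8, 74.7 and 123 CPM in alpha-beta cells, and was higher in gamma-delta cells in 6 of 7 tags (log2 1.69 ± 0.28, edgeR adjusted p = 0.00243).

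Cxcr6, the receptor for the membrane-bound chemokine CXCL16, had 175, 606 and 1017 CPM in gamma-delta cells and 80.5, 99.7 and 351 CPM in alpha-beta cells. It was higher in gamma-delta cells in 6 tags and lower in tag 11 of library 3 (log2 1.97 ± 0.36, edgeR adjusted p = 0.0202). The transcription factor gene Ikzf3 (Aiolos) had 87.7, 364 and 614 CPM in gamma-delta cells, against 38.1, 86.2 and 99.0 CPM in alpha-beta cells, and was higher in all 7 tags (log2 1.87 ± 0.30, edgeR adjusted p = 0.00213). Maf, which drives the interleukin-17 programme of gamma-delta cells, had 226, 455 and 621 CPM in gamma-delta cells and 119, 229 and 284 CPM in alpha-beta cells, likewise higher in all 7 tags (log2 1.00 ± 0.20, edgeR adjusted p = 0.0147).

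Others among the largest increases were the insulin receptor substrate Irs2 (log2 1.75), the small GTPase gene Gem (1.69), the chloride transporter gene Clcn3 (1.47) and the sialyltransferase gene St3gal6 (1.46), with edgeR adjusted p from 0.00406 to 0.0376. Irs2 had 86.1, 163 and 310.3 CPM in gamma-delta cells and 22.7, 49.1 and 74.7 CPM in alpha-beta cells, without overlap. Klrc1, which encodes the inhibitory receptor NKG2A, had 79.1, 197 and 271 CPM in gamma-delta cells and 42.1, 65.4 and 109 CPM in alpha-beta cells (log2 1.45 ± 0.31, edgeR adjusted p = 0.0191). A further 3 genes with no overlap of tags, picked after their values were seen, were D16Ertd472e (log2 1.40), Emb, an adhesion molecule of the immunoglobulin superfamily (0.97), and Fosl2, of the AP-1 family (0.78).

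**Figure D3:**
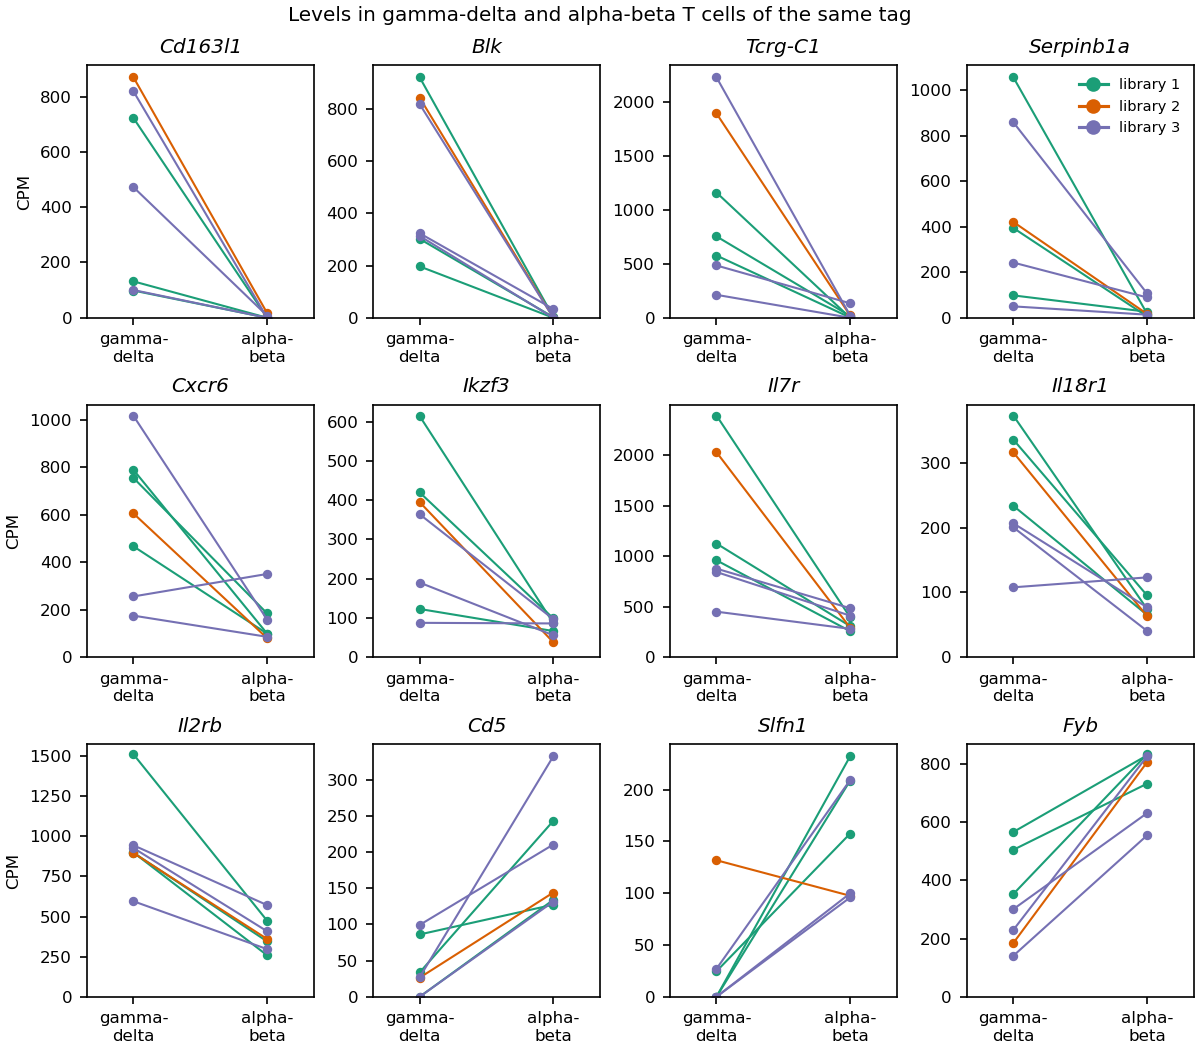
Levels of 12 genes in CPM per tag, in gamma-delta cells (left in each panel) and alpha-beta cells (right), with a line for each of the 7 tags. Cd163l1, Blk, Tcrg-C1 and Il2rb show no overlap between the classes, while Cxcr6 crosses in 1 tag and Slfn1 in 1 tag.

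The lower genes included Cd5 and Fyb, both known from signalling at the T cell receptor. Cd5, a surface brake on receptor signalling, had 0, 27 and 99.3 CPM in gamma-delta cells, against 127, 144 and 332 CPM in alpha-beta cells, without overlap (log2 -2.12 ± 0.44, edgeR adjusted p = 0.0191). The adaptor gene Fyb had 141, 301 and 566 CPM in gamma-delta cells and 554, 805 and 833 CPM in alpha-beta cells, and was lower in all 7 tags (log2 -1.27 ± 0.21, edgeR adjusted p = 0.00243).

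By size the decrease was greatest for the predicted gene Gm8369, named outside the rule after its values were seen, with 0 CPM in the lowest and median gamma-delta tag and 98.4 in the highest, against 81.7, 143 and 174 CPM in alpha-beta cells (log2 -3.09 ± 0.65, edgeR adjusted p = 0.0229). Slfn1, a Schlafen gene linked to growth arrest of T cells, was at 0 CPM in the lowest and median gamma-delta tag and at 132 in the highest, against 95.9, 158 and 232 CPM in alpha-beta cells (log2 -2.97 ± 0.62, edgeR adjusted p = 0.0264). It was higher in gamma-delta cells in tag 1 of library 2 and lower in the other 6. Ms4a4b, a membrane protein of T cells, had 66.2, 211 and 639.7 CPM in gamma-delta cells and 281, 709.6 and 849 CPM in alpha-beta cells (log2 -1.21 ± 0.25, edgeR adjusted p = 0.0180). The fatty acid binding protein gene Fabp5 had 13.5, 79.1 and 165 CPM in gamma-delta cells, against 100.1, 268 and 1045 CPM in alpha-beta cells (log2 -2.20 ± 0.35, edgeR adjusted p = 0.00213).

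Dusp10, a phosphatase of stress kinases (log2 -1.67), Taf1d of the RNA polymerase I machinery (-1.23), the tubulin gene Tuba1c (-1.25) and the pseudokinase gene Trib1 (-1.76) were also lower, with edgeR adjusted p from 0.0114 to 0.0328. Another 3 genes, known from myeloid or stressed cells, fell as well: Clec4e (Mincle) by 2.20, Hmox1 (haem oxygenase) by 2.05 and the metallothionein gene Mt1 by 1.62 on the log2 scale, with edgeR adjusted p from 0.00169 to 0.0191. Beside these, summed macrophage markers ran from 924 over a median of 2293 to 8341 CPM in gamma-delta cells and from 4959 over 7694 to 8421 CPM in alpha-beta cells, lower in gamma-delta cells in 6 of 7 tags, with 1 of the 14 markers, Cd163, at 0. All 9 macrophage markers tested had negative differences (median log2 -1.02) and 0 passed edgeR's test, with 4 at an unadjusted p under 0.05 and 2 called by DESeq2 (Lyz2 and Ctsb). The part of macrophage RNA in the lower genes was not tested.

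**Figure D4:**
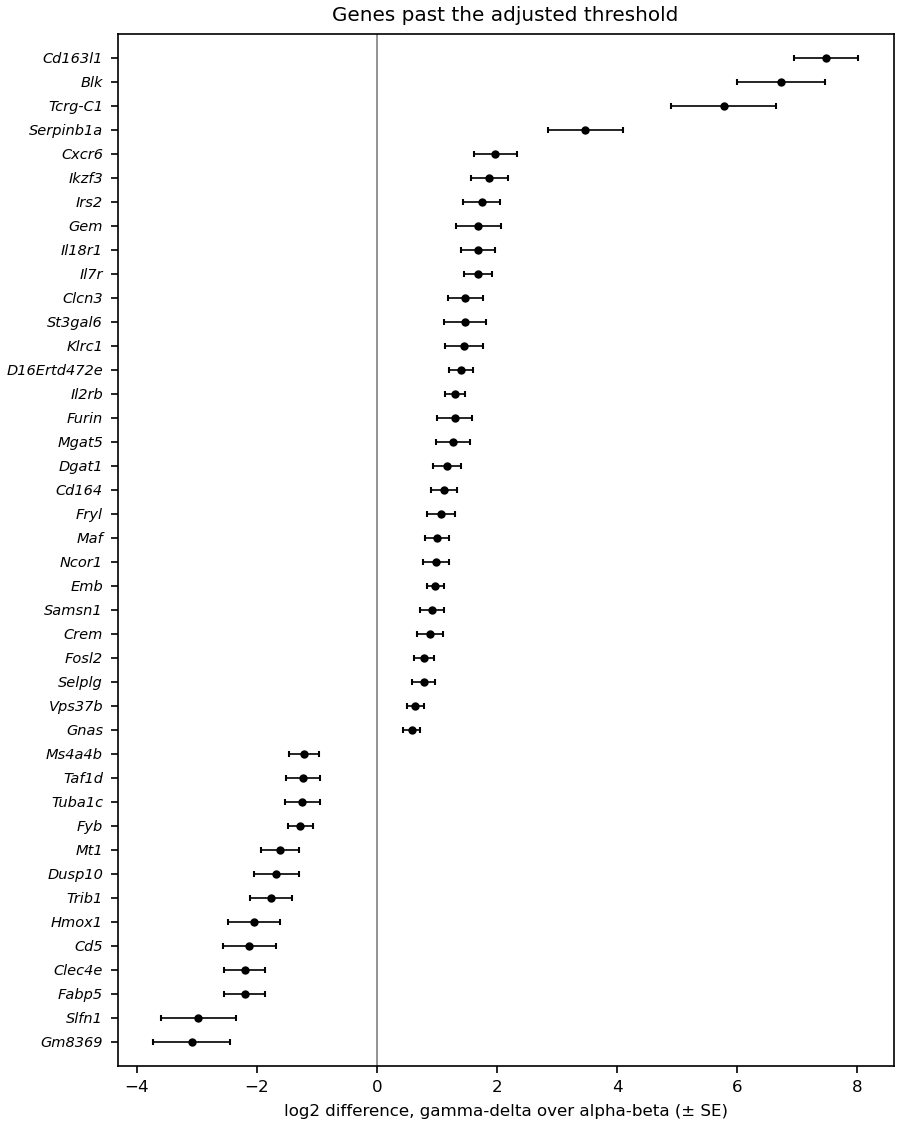
Log2 difference, gamma-delta over alpha-beta cells, with its standard error (bars) for the 42 genes past the adjusted threshold over 7 tags, ordered by size. Cd163l1, Blk and Tcrg-C1 lead at 7.48, 6.72 and 5.77, and 13 genes lie below 0.

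Since 3 of the 7 tags came from library 1, 1 from library 2 and 3 from library 3, each library was left out in turn, which gave 33, 27 and 53 called genes. Of the genes named here, Cd163l1, Ikzf3, Il7r, Il2rb and D16Ertd472e were among those that passed the test each time. Blk, Il18r1 and Maf missed it without library 1, Cxcr6 and Tcrg-C1 without library 1 and without library 2, and Serpinb1a without library 2, all with the same sign. Among the genes lower in gamma-delta cells, Fyb and Fabp5 missed it without library 3, Cd5 and Ms4a4b without library 2 and without library 3, and Slfn1 without library 1 and without library 3. Klrc1 missed it without library 1 and without library 3, Irs2 and Hmox1 without library 3, and Clec4e and Hmox1 were too low to test without library 1.

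Read by group, the type 17 list had 10 of 26 genes tested, of which 5 rose (Cd163l1, Blk, Serpinb1a, Il18r1 and Maf) and 0 fell, with a median log2 difference of 1.89. Most of its other members were too low for the test and are given as levels. Il23r had 12.5, 57.9 and 176 CPM in gamma-delta cells (lowest, median, highest tag) and 0, 0 and 7.47 CPM in alpha-beta cells. Sox13 had 24.6, 84.0 and 197 CPM in gamma-delta cells and 0 in all 7 alpha-beta sums. Neither overlapped between the classes. Il17a had 0, 154 and 526 CPM in gamma-delta cells, against 0, 0 and 471 CPM in alpha-beta cells, where the alpha-beta molecules came from tags 11 and 12 of library 3 alone. The membrane protein gene Tmem176b missed the threshold at a log2 difference of 2.10 (edgeR adjusted p = 0.0507), as did Rora, a nuclear receptor gene, at 1.38 (edgeR adjusted p = 0.462). DESeq2 called 7 genes of the list, the 5 above with Tmem176a and Tmem176b.

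The type 1 and cytotoxic list had 14 of 24 genes tested, of which 2 rose (Il2rb and Klrc1) and 0 fell, with a median log2 difference of 0.35. Gzma had 0, 344 and 1054 CPM in gamma-delta cells and 0, 99.7 and 389.9 CPM in alpha-beta cells (log2 1.04, edgeR adjusted p = 0.802), and Ifng 0, 26.4 and 151 CPM against 9.07, 44.8 and 89.0 CPM, too low for the test. Gzmb had a difference of -1.35 (edgeR adjusted p = 0.413) and Ly6c2 likewise of -1.35 (edgeR adjusted p = 0.490), and neither passed this test. DESeq2 called Ly6c2 as well as Il2rb and Klrc1, 3 of the list in all. Of 11 natural killer cell markers 2 were tested and 0 called by edgeR or DESeq2, with 1 (Txk) at an unadjusted p under 0.05. Their summed level was 405, 1279 and 3376 CPM in gamma-delta cells and 819.6, 1006 and 1343 CPM in alpha-beta cells, lowest, median and highest tag.

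Of the list for CD4, CD8 and regulatory cells, 8 of 15 genes were tested, 0 rose and Cd5 fell, with a median of -0.24. The rule kept cells with Cd4 or Cd8 out of the gamma-delta class only, so this list is tied to the selection. Against alpha-beta cells with neither, where fewer genes could be tested, only Blk, Tcrg-C2 and D16Ertd472e passed the test. How far the selection sets the differences of this list was not tested. Ctla4 (log2 -3.08) and Cd28 (-1.90), an inhibitory and an activating receptor for the same ligands, both had an edgeR adjusted p of 0.0837. Icos, of the same family, lay on the other side at 1.20 (edgeR adjusted p = 0.0707). DESeq2 called 4 genes of this list, Cd5, Ctla4, Cd28 and Icos. Of the alpha-beta receptor list, Trbc1 and Trbc2 were tested, with differences of -0.31 and -0.22 (edgeR adjusted p = 0.629 and 0.815, and 0 at an unadjusted p under 0.05 or called by DESeq2). The receptor signalling list had 13 of 15 genes tested and 0 called by edgeR, with 3 at an unadjusted p under 0.05 that DESeq2 called. These were Zap70 at 1.17 and Cd247 at 0.93 (edgeR adjusted p = 0.0672 for both) and Cd2 at -1.16 (edgeR adjusted p = 0.0769).

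Cytokine receptors had 10 of 14 genes tested with Il7r called, tissue residence 7 of 11 with Cxcr6 called, and innate T cell transcription factors 4 of 8 with Ikzf3 called, each higher and with medians of 0.35, 0.51 and 0.51. DESeq2 called 3 of the cytokine receptors (Il7r, Il18rap and Tgfbr2) and 1 gene in each of the other lists. Under edgeR 0 genes passed among 4 of 11 chemokine receptors tested (median -0.12), 5 of 21 secreted factors (-0.07), 8 of 11 genes of naive and recirculating cells (-0.14), 11 of 12 immediate early genes (0.02) and 1 of 10 markers of type 2 innate lymphoid cells. At an unadjusted p under 0.05 stood 1 (Ccr1), 1 (Ltb), 2 (Igfbp4 and Ccr7), 1 (Junb) and 0 of them, beside 377 of all 3125 genes. Of these list genes DESeq2 called Ltb. Of 10 cell cycle genes 7 were tested, all with negative differences (median -1.11), 1 (Hmgb2) at an unadjusted p under 0.05 and 0 called by edgeR or DESeq2. Mki67 had 0, 87.8 and 439 CPM in gamma-delta cells and 105, 280.1 and 641 CPM in alpha-beta cells (edgeR adjusted p = 0.646). Of the markers of other cells, 6 of 8 for dendritic cells, 1 of 6 for B cells and 1 of 6 for endothelial and mural cells were tested and 0 called by edgeR or DESeq2, with 0, 1 (Ighm) and 1 (Pecam1) at an unadjusted p under 0.05. Those of neutrophils, fibroblasts, cardiomyocytes, erythroid cells and mast cells did not pass the filter on counts and were not tested. Single tags could still be high in them. Summed fibroblast markers had 16.8, 108 and 10198.5 CPM in gamma-delta cells (lowest, median, highest tag) and 62.7, 148 and 1087 CPM in alpha-beta cells. Neutrophil markers had 0, 24.6 and 1554 CPM against 31.9, 309 and 593 CPM. The part of such RNA in the results was not tested.

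The genes the study turns on were low in these cells. F7 was found in 1 of 79 gamma-delta cells (1.28 CPM), 12 of 493 alpha-beta cells (3 CPM) and 6 of 222 natural killer cells, a share in gamma-delta cells no higher than in natural killer cells. Cx3cr1, whose gene drives Cre in the study, was found in 16 gamma-delta and 85 alpha-beta cells (73.1 and 51.2 CPM), and in 1.27% and 2.43% of cells after thinning. Of 10 coagulation genes 2 were tested: F2r, the thrombin receptor PAR1, had 49.2, 109.7 and 369 CPM in gamma-delta cells and 12.7, 52.9 and 68.2 CPM in alpha-beta cells (log2 1.25, edgeR adjusted p = 0.259), and Plaur, the urokinase receptor, a difference of -0.88 (edgeR adjusted p = 0.522). Neither passed the test with edgeR or DESeq2, and F2r had an unadjusted p under 0.05.

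The leading differences were also seen at equal depth. Thinned to 1000 molecules, Blk was seen in 39.2% of gamma-delta and 0.406% of alpha-beta cells, Cd163l1 in 25.3% and 0.406%, and Il1r1 in 24.1% and 0.609%. Il7r was seen in 60.8% and 31.0%, Tmem176b in 36.7% and 9.13%, and Il17a in 11.4% and 2.23%. Lower in gamma-delta cells after thinning were Themis, needed for alpha-beta selection, in 5.06% and 12%, and Cd6, a relative of Cd5, in 2.53% and 8.52%.

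**Figure D5:**
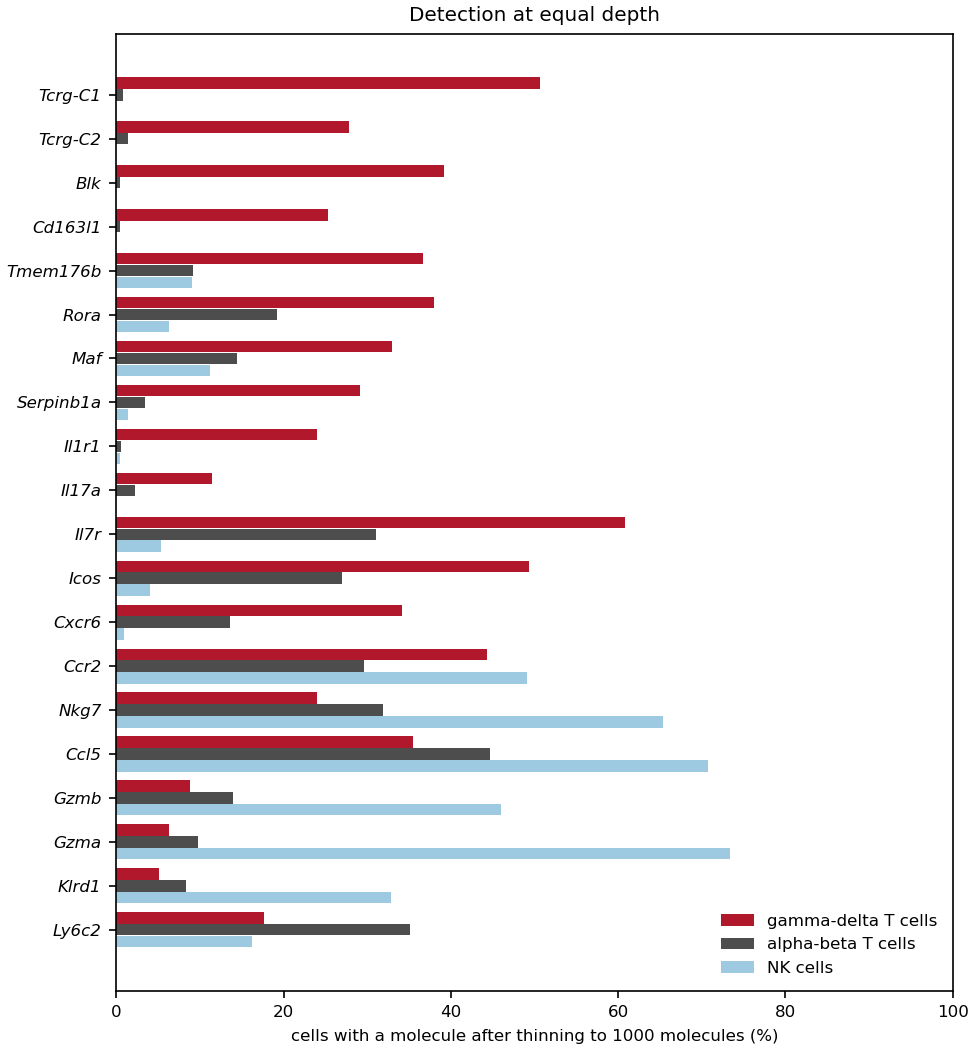
Percent of cells with a molecule of each of 20 genes after thinning every cell to 1000 molecules, in 79 gamma-delta, 493 alpha-beta and 222 natural killer cells. Cd163l1, Blk and Tcrg-C1 stand out in gamma-delta cells at 25.3%, 39.2% and 50.6%.

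Most alpha-beta cells had CD4 or CD8 molecules, and the comparison changed when they were left out. Set against the 84 alpha-beta cells with neither, which left 5 tags with 40 gamma-delta and 39 alpha-beta cells, 3 of 1413 genes passed the test, all higher in gamma-delta cells: Blk at a log2 difference of 8.18, Tcrg-C2 at 2.62 and D16Ertd472e at 2.25. Of the 42 genes called before, 25 could be tested there and 2 were called. With at least 3 cells per tag, an alternative chosen after the data were seen, 23 of 618 genes were called, among them Rora (3.02), Cxcr6 (2.68), Tmem176b (2.26), Icos (1.94) and Maf (1.33). With gamma-delta cells held to no Trac molecule, 3 genes were called over 2 tags, Cd163l1 at 7.32, Trdv4 at 9.11 and Ctla4 at -5.91.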

How the data were processed

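Leukocytes of infarcted hearts were digested, selected with anti-CD45 beads, tagged per biological replicate and pooled, per the labels' protocols. The authors deposited molecule counts per cell and gene, corrected by RSEC, made with the BD Rhapsody pipeline 2.0b1 (library 1, intronic reads kept) or 1.10 (libraries 2 and 3) against GRCm38 and GENCODE M19, per the file headers. Counts were used as deposited, and positions come from GENCODE M21. How reads shared by gene copies were handled is not stated there.

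Of 25762 cells, 122 with under 200 genes were left out. Doublets were not removed in the main results: a Scrublet score (scanpy 1.11.5, expected rate 6%) was computed per library, and 2 of 79 gamma-delta cells were among the highest 2%, left out as an alternative. Where a tag held 5 or more cells of both classes, the molecules of each class were added up, and the sums were compared in edgeR 4.0.16 (R 4.3.3) by its quasi-likelihood F test, TMM factors, filterByExpr, the tag as a block because its cells come from the same heart, and Benjamini-Hochberg adjustment over 3125 genes. The 12 genes of the rule stayed in the library sizes and out of the tested table. Levels are CPM of the sums, and intervals are exact 95% Clopper-Pearson. A count of 0 was given a limit of 3 counts. Thinning drew 1000 molecules per cell with a fixed seed. In data simulated for this comparison (2916 genes), 22 of 62 genes changed by a log2 of 1, 52 of 52 by 2 and 54 of 54 by 3 were called, and 2 of 2748 unchanged genes.

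Members and lists were chosen with earlier results of these data known. Genes were named by rule: up to 12 called genes with the largest difference in each direction and one sign in 80% of tags (receptor V segments, mitochondrial, ribosomal, haemoglobin and predicted Gm or Rik genes left out), up to 4 per list by adjusted p, and 10 fixed genes; all others named were chosen after their values were seen. The 18 tags have no genotype or time in the labels, so such comparisons were left out, and the table of tags was not used here. P values measure the spread between 7 tags. A gene of the type 17 set was left out of the count of cells, and it and another gene are not reported here.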

Additional observations from a re-analysis of the deposited data

Results flagged for a closer look

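Dixon's test at 95% was run on 48 groups of tags. These were the gamma-delta levels of the 42 called genes over 7 tags, and the gamma-delta shares of T cells and of all cells within each library. In 6 groups 1 tag stood apart, which chance alone gives in about 1 of 20 groups. All 6 were among the 42 gene levels. Il2rb was high at 1512 CPM in tag 11 of library 1 (median of the 7 tags 899.7 CPM), and Clcn3 was low there at 67.2 CPM (median 197 CPM). Tag 7 of library 1 was high in Clec4e at 73.8 CPM (median 33.6 CPM), in Hmox1 at 111 CPM (median 33.1 CPM) and in Gm8369 at 98.4 CPM (median 0). Slfn1 stood at 132 CPM in tag 1 of library 2 (median 0). These tags held 6, 7 and 6 gamma-delta cells.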

How the results depend on the processing

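The number of genes called, 42 of 3125, was 42 with DESeq2-type size factors and with cells of 500 or more genes, 29 with at least 2 Trdc molecules, 32 with a gamma constant gene required, 52 without the highest Scrublet scores and 35 without the tag as a block for the pairing of classes. It was 255 without a filter on low counts (median log2 difference of all genes then -0.42), 79 with 3 cells per tag and class, 84 with DESeq2, 6 with thinned cells, 3 with Trac at 0, 3 against alpha-beta cells with Cd4 and Cd8 at 0, and 23 for the same with 3 cells. Leaving out library 1, 2 or 3 in turn gave 27 to 53. These totals hold other genes too. Of the 42, DESeq2 still called 41, and 19 stayed with at least 2 Trdc molecules and 20 with a gamma constant gene required. Without library 1, 13 of the 40 that could be tested were still called, without library 2 it was 26 and without library 3 it was 17. With thinned cells it was 3 of 9 tested. Only 1 of the 42 was called under every alternative that tested it. Of the 42 genes, 41 kept their sign wherever tested, and Vps37b turned to -0.15 against alpha-beta cells with Cd4 and Cd8 at 0 and 3 cells per tag. Cd163l1 was called under all 13 alternatives that tested it, at log2 6.65 to 8.51, Il7r in 13 of 16, Blk in 11 of 13, Cxcr6 in 9 of 15 and Tcrg-C1 in 8 of 15. The median share of T cells per tag, 13.3%, was 11.4 to 15.8% without each library. Type 17 genes were seen in 55.7 to 66.7% of gamma-delta cells and type 1 genes in 40.7 to 52.5% without each library, and in 39.2% and 24.1% after thinning. With a gamma constant gene required they were seen in 67.6% and 45.1%. A minimum of 10 cells (1 tag) and no C1q molecule (0 tags) could not be fitted. Where a call changed, the cause was not tested beyond the smaller number of cells or genes.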
